A study of Mus musculus with 11 samples.

Results

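The innate sensors and cytokine receptors of the hepatocyte were examined as a set of 10 genes: the sensor co-receptor Cd14, the Toll-like receptors Tlr2, Tlr3, Tlr4 and Tlr5, the adapter Myd88, and the receptor chains Il1r1, Il6ra, Il6st and Il4ra. They are 10 of the 54232 genes counted in 11 RNA-seq libraries of isolated hepatocytes, and all 10 were among the 13303 genes that passed the filter on low counts. The mice were adult C57BL/6 males. Xbp1 fl/fl mice, the controls, carry the floxed Xbp1 gene without Cre, and Xbp1 LKO mice carry the same floxed gene with a Cre driven by the albumin promoter, so that the gene is deleted in hepatocytes. The chow groups were Xbp1 fl/fl (n = 3 libraries) and Xbp1 LKO (n = 2 analysed here, fewer than the study's methods describe), and each of these libraries came from 1 mouse. The HFS groups received a high fat sugar diet, a Western diet with fructose and glucose in the drinking water, and comprised Xbp1 fl/fl (n = 3) and Xbp1 LKO (n = 3), with each library a pool of 2 mice. Feeding lasted up to 6 weeks. Diet and pooling therefore change together and cannot be told apart.

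Toll-like receptors recognise microbial molecules at the cell surface or in endosomes. Most of them, and the IL-1 receptor, pass the signal through the adapter MYD88 to NF-kB, while TLR3 uses a separate adapter, TICAM1. IL-6 binds its receptor IL6RA, pairs with the shared signaling chain IL6ST (gp130) and activates STAT3, and in hepatocytes IL-1 and IL-6 are the main inducers of the acute phase proteins. IL4RA forms receptors for IL-4 and IL-13 and signals through STAT6. In liver, macrophages, sinusoidal endothelial cells and stellate cells also carry many of these receptors, so a small admixture of such cells can contribute counts. In bulk RNA, fewer cells of a type and less RNA per cell cannot be told apart.

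Total counts were 19191032 to 23888401 per library. Every Xbp1 LKO library had less Xbp1 (95.7 to 135 CPM, normalized counts-per-million) than every Xbp1 fl/fl library (194 to 301 CPM), although a count over the whole gene also includes transcript without the deleted exon. Alb, the main hepatocyte product, took 1.67% to 10.9% of the counts, while 20 of 20 macrophage and Kupffer cell markers and 15 of 15 sinusoidal endothelial markers also had counts in all libraries. Among chow-fed Xbp1 fl/fl libraries the first stood apart in these, with 220 CPM of summed macrophage markers against 58.8 and 70.6 CPM. Alb was lower in every Xbp1 LKO library (14020 to 51480 CPM) than in every Xbp1 fl/fl library (64340 to 119400 CPM). Of all 11 libraries the second chow-fed Xbp1 LKO one had the least Alb. The log2 fold change of Alb between genotypes was -2.14 on chow (edgeR, SE 0.38, adjusted p = 0.0107). On HFS it was -0.86 (SE 0.32, adjusted p = 0.178). Alb fell further than most of its list. Of the 19 hepatocyte markers tested, 15 had a negative and 4 a positive log2 fold change between genotypes on chow (median -0.32). On HFS 16 were negative and 3 positive (median -0.34). Of these markers 2 passed the threshold on chow and 1 on HFS, all lower in Xbp1 LKO hepatocytes. The cause of the Alb difference was not tested.

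On a scale of CPM per kilobase of exon, which allows levels to be compared between genes, the receptor chains Il6st, Il1r1 and Il6ra had the highest means, followed by the adapter Myd88. Il6st had a mean of 16.7 ± 2.3 CPM per kb (SD over the 11 libraries), Il1r1 10.1 ± 4.0, Il6ra 9.22 ± 2.37, Myd88 7.13 ± 0.643, Il4ra 4.59 ± 0.969 and Tlr5 4.29 ± 1.23. Tlr3 followed at 1.26 ± 0.375, Tlr2 at 0.557 ± 0.357, Cd14 at 0.358 ± 0.24 and Tlr4 at 0.0494 ± 0.0374 CPM per kb. The steps from Myd88 to Il4ra, from Tlr5 to Tlr3, from Tlr3 to Tlr2 and from Cd14 to Tlr4 held in 11 of 11 libraries. Il6st exceeded Il1r1 and Tlr2 exceeded Cd14 in 10, and Il6ra exceeded Myd88 in 9, whereas Il1r1 exceeded Il6ra in 7 and Il4ra exceeded Tlr5 in 8, so that the last 2 pairs of neighbours do not differ beyond their spread. The flagellin receptor Tlr5 was thus the most abundant of the 4 Toll-like receptors among the members and the endotoxin receptor Tlr4 the least, with no library above 14 counts of Tlr4. Of the Toll-like receptors outside the set, Tlr12 had a higher mean than Tlr5, at 6.64 CPM per kb. Tlr1, Tlr9 and Tlr11 had lower means than Tlr4, at 0.0376, 0.0184 and 0.00356 CPM per kb. The level of Myd88 varied least, with 1.43-fold between its highest and lowest library in CPM, and those of Cd14, Tlr2 and Tlr4 varied most (8.07-fold, 8.73-fold and 9.05-fold).

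**Figure D1:**
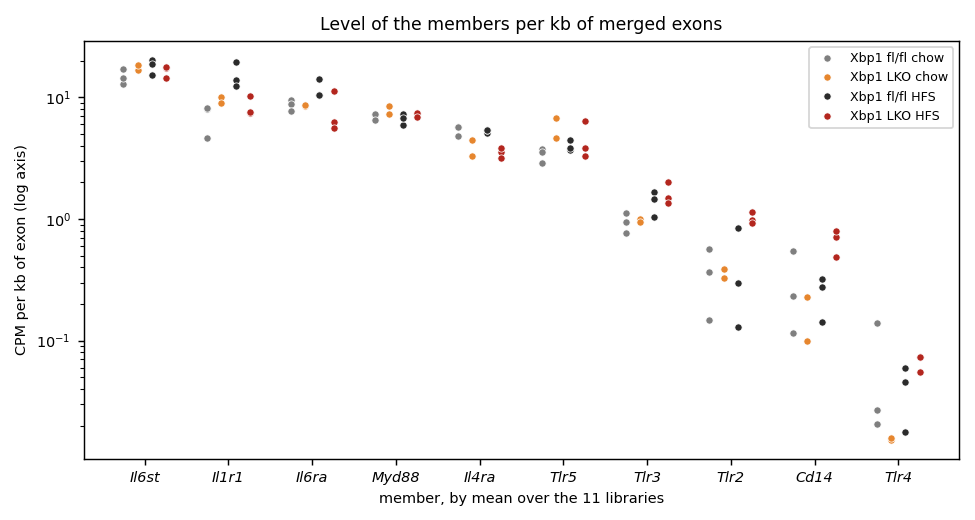
Level of each member in CPM per kilobase of merged exons (log axis), with 1 point per library coloured by group and members ordered by their mean over the 11 libraries. Il6st, Il1r1 and Il6ra lie highest, and Tlr4 lies lowest in every library.

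Of the 10 members, 1 passed an adjusted p of 0.05 in any of the 5 comparisons, namely Il4ra in HFS-fed mice (quasi-likelihood F test of edgeR, p-values adjusted over all 13303 genes by the Benjamini-Hochberg method). On chow, 0 of 10 members differed between genotypes, where 4.75% of all genes did, and 2 had an unadjusted p under 0.05 (19.3% of all genes). On the HFS diet 1 of 10 differed, where 4.08% of all genes did, and 5 had an unadjusted p under 0.05 (17.5% of all genes). The diet changed 0 of 10 members in Xbp1 fl/fl hepatocytes (0.428% of all genes; 2 members and 8.95% of all genes at an unadjusted p under 0.05) and 0 of 10 in Xbp1 LKO hepatocytes (0.0601%; 4 members and 12.7% at an unadjusted p under 0.05). The genotype by diet interaction was past the threshold for 0 members, and for 0% of all genes, with 3 members and 6.13% of all genes at an unadjusted p under 0.05. With DESeq2 the counts of members were 1 (Il4ra), 2 (Il4ra and Il1r1), 1 (Il1r1), 0 and 0 in the same order, where DESeq2 called 8.5%, 7.57%, 1.42%, 1.6% and 0.218% of all genes. The members' median log2 fold change was 0.02, 0.14, 0.24, -0.12 and -0.09, beside 0, 0.01, -0.01, 0 and 0.01 for all genes. The 2 genotype comparisons share no libraries, whereas each diet comparison shares libraries with both of them.

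**Figure D2:**
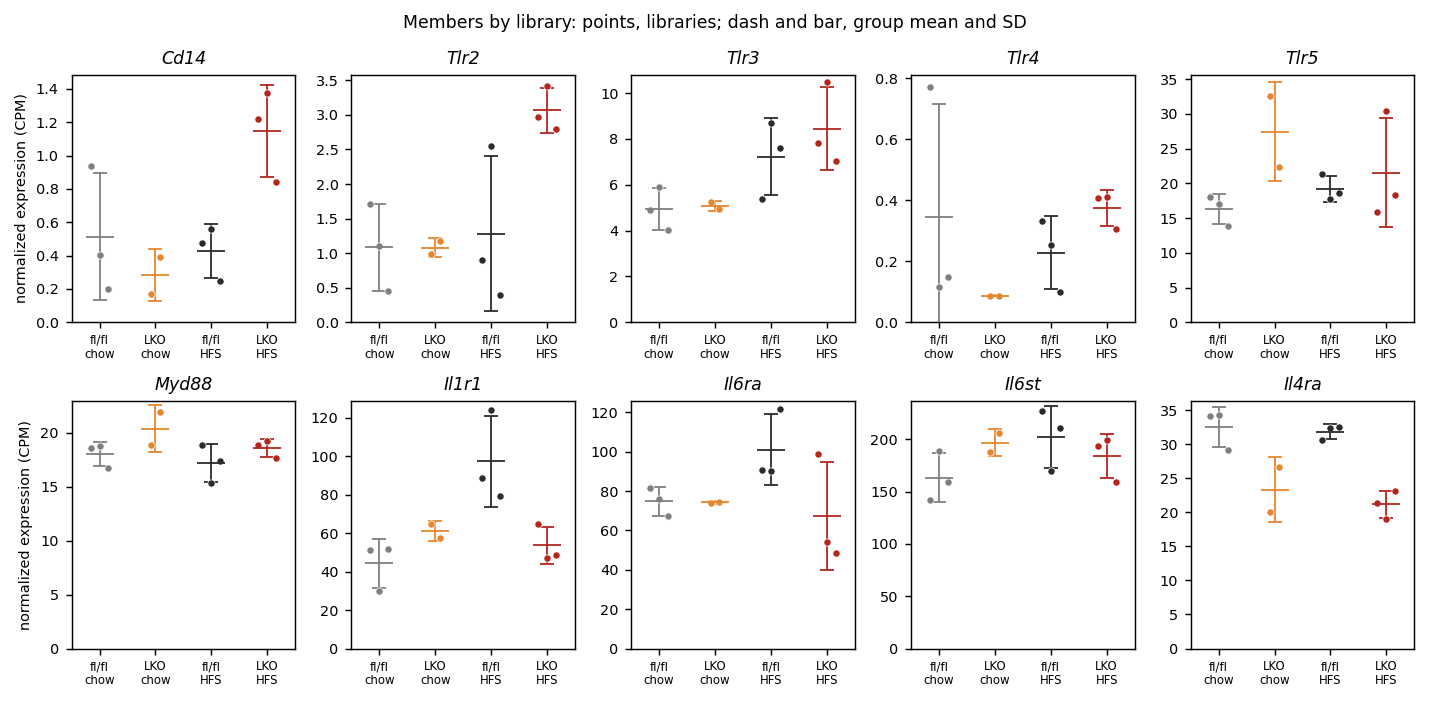
Normalized expression (CPM, each panel with its own axis from 0) of the 10 members by genotype and diet, with 1 point per library and the group mean with its SD as a dash and bar; the SD bar of Tlr4 in chow-fed Xbp1 fl/fl hepatocytes is clipped at 0. The 3 HFS-fed Xbp1 LKO libraries lie above the HFS-fed Xbp1 fl/fl libraries for Cd14 and Tlr2 and below them for Il1r1 and Il4ra.

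Whether sensing of bacterial products differed was first examined in the surface sensors. Cd14 (ENSMUSG00000051439; chromosome 18 from 36725067 to 36726798 of GRCm38, minus strand), which hands endotoxin to TLR4 and lipopeptides to TLR2, had 0.938, 0.405 and 0.199 CPM in chow-fed Xbp1 fl/fl hepatocytes and 0.171 and 0.393 CPM in chow-fed Xbp1 LKO hepatocytes. On the HFS diet, its level was 0.476, 0.56 and 0.245 CPM in Xbp1 fl/fl and 1.22, 1.38 and 0.843 CPM in Xbp1 LKO hepatocytes. The HFS-fed groups did not overlap, and neither did the 2 diets in Xbp1 LKO hepatocytes, but each value rests on only 4 to 37 counts. Of all genes, 26.1% had groups that did not overlap between genotypes on HFS, and 4 of the 10 members did; the shares were 31.3% and 5 members on chow, 13.7% and 2 members for the diet in Xbp1 fl/fl hepatocytes, and 31.1% and 4 members for the diet in Xbp1 LKO hepatocytes. The log2 fold change between genotypes on HFS was 1.42 (SE 0.53, adjusted p = 0.183), and that of the diet in Xbp1 LKO hepatocytes was 2.01 (SE 0.63, adjusted p = 0.253), so neither passed the threshold.

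Tlr2 (ENSMUSG00000027995; chromosome 3 from 83836272 to 83841767, minus strand), a receptor for bacterial lipopeptides, also had its highest group mean in HFS-fed Xbp1 LKO hepatocytes. Its level was 1.71, 1.10 and 0.448 CPM in chow-fed Xbp1 fl/fl and 0.981 and 1.18 CPM in chow-fed Xbp1 LKO hepatocytes. After HFS feeding there were 0.905, 2.54 and 0.392 CPM in Xbp1 fl/fl and 2.97, 3.42 and 2.80 CPM in Xbp1 LKO hepatocytes. The HFS-fed Xbp1 LKO libraries were the 3 highest of all 11, and the HFS-fed Xbp1 fl/fl libraries spread over most of the range of the gene. The log2 fold change between genotypes was 0.00 (SE 0.65, adjusted p = 0.999) on chow and 1.26 (SE 0.55, adjusted p = 0.263) on HFS, and that of the diet in Xbp1 LKO hepatocytes was 1.5 (SE 0.64, adjusted p = 0.356). With 1 library left out, the HFS log2 fold change between genotypes ranged from 0.83 to 2.23 (edgeR, adjusted p 0.0575 to 0.536). It was highest without the second HFS-fed Xbp1 fl/fl library, and none of these fits passed the threshold.

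Tlr4 (ENSMUSG00000039005; chromosome 4 from 66827584 to 66930284, plus strand), the endotoxin receptor, was close to the limit of detection. The chow-fed Xbp1 fl/fl libraries held 14, 2 and 3 counts, the chow-fed Xbp1 LKO libraries 2 and 2, the HFS-fed Xbp1 fl/fl libraries 7, 5 and 2 and the HFS-fed Xbp1 LKO libraries 10, 11 and 8. Relative to library size, Xbp1 LKO over Xbp1 fl/fl was 0.252 on chow (95% exact interval 0.0624 to 0.759) and 1.63 on HFS (0.835 to 3.34), and HFS over chow was 4.33 in Xbp1 LKO hepatocytes (1.52 to 17). These intervals cover counting error only, and 14 of the 19 counts of chow-fed Xbp1 fl/fl hepatocytes came from the library of that group with the most macrophage markers. In the edgeR model, which takes the spread between libraries into account, no comparison of Tlr4 passed the threshold, and the smallest adjusted p was 0.281.

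Markers of macrophages, which carry these 3 sensors, were set beside them. The summed level of the 20 macrophage and Kupffer cell markers was 58.8 to 220 CPM in chow-fed Xbp1 fl/fl, 56.8 and 77.6 CPM in chow-fed Xbp1 LKO, 116 to 228 CPM in HFS-fed Xbp1 fl/fl and 122 to 171 CPM in HFS-fed Xbp1 LKO hepatocytes. Mpeg1, the most abundant of them, gave 174 of the 228 CPM in the second HFS-fed Xbp1 fl/fl library, and so sets the upper end of that group. Without Mpeg1, a choice made after seeing the values, the sums were 70.2, 53.4 and 49.5 CPM in HFS-fed Xbp1 fl/fl and 69.2, 75.7 and 122 CPM in HFS-fed Xbp1 LKO hepatocytes, so that the groups overlapped in 1 pair of libraries and Xbp1 LKO was otherwise the higher. On chow these sums were 109, 25.6 and 27.2 CPM in Xbp1 fl/fl and 29.9 and 44.2 CPM in Xbp1 LKO hepatocytes. By gene, 18 of the 20 markers had a positive log2 fold change between genotypes on HFS (median 0.61) and 19 of 20 with the diet in Xbp1 LKO hepatocytes (median 1.30), and none was past the threshold; no defining marker was at 0, with Adgre1 at 1.83 to 4.75 CPM and Clec4f at 11.2 to 20.9 CPM in HFS-fed Xbp1 LKO hepatocytes. The summed stellate cell markers were 19.3 to 65.2 CPM in Xbp1 fl/fl and 14.1 and 16.8 CPM in Xbp1 LKO hepatocytes on chow, and 33.3 to 59.3 and 38.6 to 80 CPM on HFS. Of the 10 stellate markers tested, 10 had a positive log2 fold change with the diet in Xbp1 LKO hepatocytes (median 2.22) and 8 between genotypes on HFS (median 0.37), and none was past the threshold. The part of these cells in the levels of Cd14, Tlr2 and Tlr4 was not tested.

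**Figure D3:**
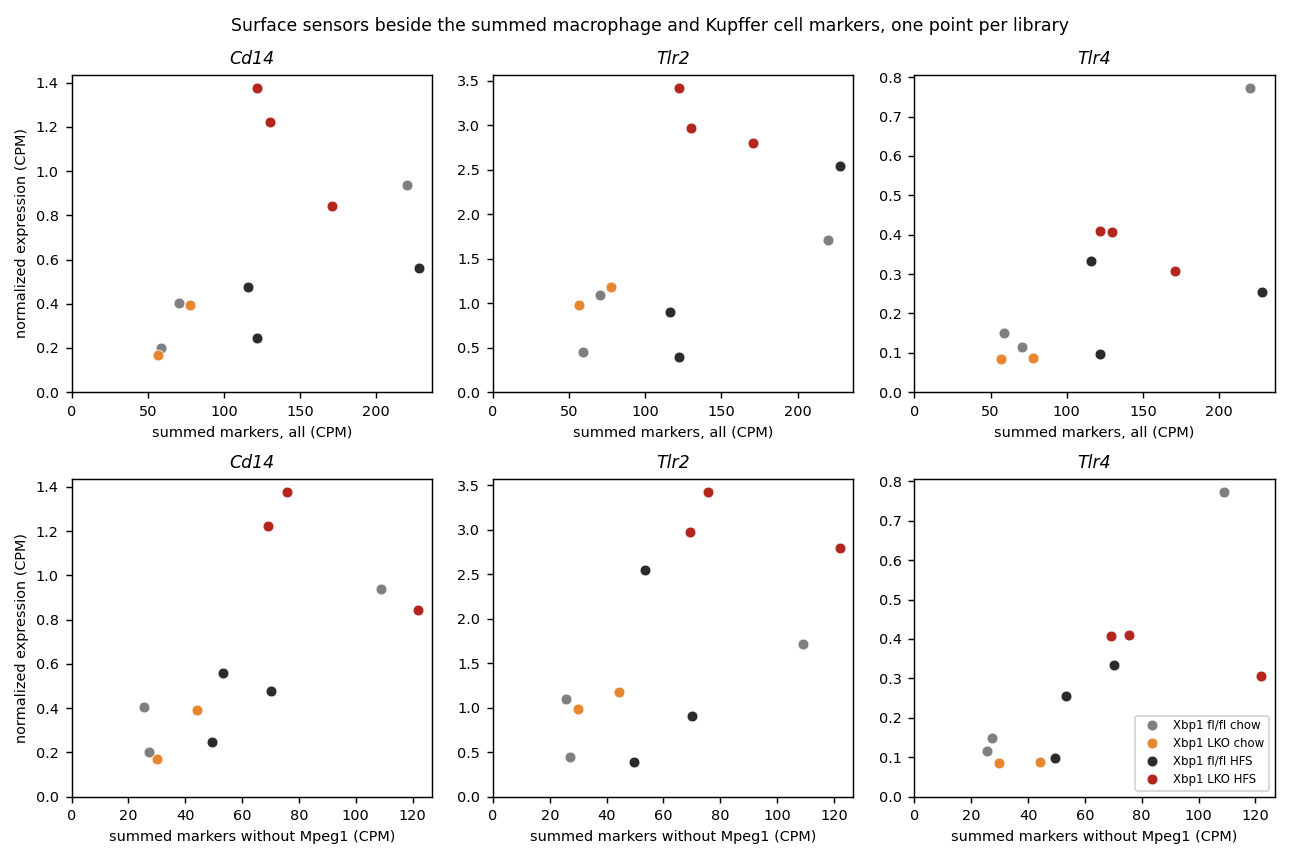
Normalized expression of Cd14, Tlr2 and Tlr4 (CPM) against the summed CPM of 20 macrophage and Kupffer cell markers (upper panels) and of the 19 other than Mpeg1 (lower panels), with 1 point per library coloured by group. The second HFS-fed Xbp1 fl/fl library moves from 228 to 53.4 CPM when Mpeg1 is left out, and library 1 of chow-fed Xbp1 fl/fl mice, at 220 and 109 CPM, has the highest Tlr4.

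Tlr3 (ENSMUSG00000031639; chromosome 8 from 45395665 to 45411080, minus strand), the endosomal receptor for double-stranded RNA, was higher on average on the HFS diet in both genotypes. It had 4.91, 5.89 and 4.03 CPM in chow-fed Xbp1 fl/fl, 5.25 and 4.94 CPM in chow-fed Xbp1 LKO, 5.38, 8.70 and 7.59 CPM in HFS-fed Xbp1 fl/fl and 7.82, 10.5 and 7.05 CPM in HFS-fed Xbp1 LKO hepatocytes. The diets did not overlap in Xbp1 LKO hepatocytes (log2 fold change 0.73, SE 0.25, adjusted p = 0.283) and overlapped in Xbp1 fl/fl hepatocytes (0.55, SE 0.23, adjusted p = 0.508). Between genotypes the log2 fold change was 0.05 (SE 0.25) on chow and 0.23 (SE 0.22) on HFS, both within the spread of the libraries.

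Tlr5 (ENSMUSG00000079164; chromosome 1 from 182954788 to 182976044, plus strand), the receptor for flagellin, had 18.1, 17 and 13.9 CPM in chow-fed Xbp1 fl/fl and 32.5 and 22.4 CPM in chow-fed Xbp1 LKO hepatocytes. These groups did not overlap, and the difference, a log2 fold change of 0.75 (SE 0.25), gave an adjusted p = 0.124. On the HFS diet the groups overlapped, at 21.3, 17.8 and 18.6 CPM in Xbp1 fl/fl and 15.8, 30.5 and 18.3 CPM in Xbp1 LKO hepatocytes. With library totals in place of TMM factors the chow difference passed the threshold (log2 fold change 1.07, adjusted p = 0.0177), a scaling that moved the median of all genes to 0.33; relative to that median Tlr5 was 0.74 higher.

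Myd88 (ENSMUSG00000032508; chromosome 9 from 119335934 to 119341411, minus strand), the adapter on which TLR2, TLR4, TLR5 and the IL-1 receptor converge, was the steadiest member. Its mean was 18.0 ± 1.12 CPM (SD, n = 3) and 20.4 ± 2.21 CPM (n = 2) in the Xbp1 fl/fl and Xbp1 LKO groups on chow and 17.2 ± 1.73 (n = 3) and 18.6 ± 0.833 CPM (n = 3) in the corresponding HFS-fed groups. The log2 fold changes lay between -0.13 and 0.18 in the 4 pairwise comparisons, with standard errors of 0.11 to 0.12. Exons of Acaa1a, on the opposite strand, cover 290 bases of the exons of Myd88, and Acaa1a had up to 6827 counts where Myd88 had at most 517. If reads were counted without strand, the Myd88 counts could be off over these bases. In which direction depends on how shared reads were treated, which is not given in the sources used here.

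Il1r1 (ENSMUSG00000026072; chromosome 1 from 40225080 to 40317257, plus strand), the signaling receptor for IL-1, lay apart between genotypes in opposite directions on the 2 diets. On chow its level was 51.1, 29.8 and 51.9 CPM in Xbp1 fl/fl and 64.6 and 57.5 CPM in Xbp1 LKO hepatocytes. On HFS it was 88.6, 124 and 79.1 CPM in Xbp1 fl/fl and 65.0, 47.3 and 48.5 CPM in Xbp1 LKO hepatocytes. Neither pair of groups overlapped: Xbp1 LKO was the higher genotype on chow and the lower on HFS. In Xbp1 fl/fl hepatocytes the mean was 44.3 ± 12.6 CPM on chow and 97.3 ± 23.7 CPM on HFS (SD, n = 3 each), again without overlap, while the Xbp1 LKO groups overlapped at 61.1 ± 5.04 (n = 2) and 53.6 ± 9.88 CPM (n = 3).

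None of these differences of Il1r1 passed the threshold in the edgeR model. The log2 fold change between genotypes was 0.46 (SE 0.25, adjusted p = 0.347) on chow and -0.86 (SE 0.23, adjusted p = 0.0582) on HFS, and that of the diet in Xbp1 fl/fl hepatocytes was 1.14 (SE 0.23, adjusted p = 0.0656). For the interaction it was -1.32 (SE 0.34, adjusted p = 0.623), the smallest unadjusted p of the 10 members in that comparison. With DESeq2 the HFS genotype difference (adjusted p = 0.00673) and the diet difference in Xbp1 fl/fl hepatocytes (adjusted p = 0.000349) passed. The summed sinusoidal endothelial markers were 74.8 to 191 CPM in chow-fed and 146 to 249 CPM in HFS-fed Xbp1 fl/fl hepatocytes, and 44.8 and 58.2 CPM in chow-fed and 115 to 208 CPM in HFS-fed Xbp1 LKO hepatocytes; the diet gave 15 of 15 of them a positive log2 fold change in each genotype, genotype gave 15 of 15 a negative one on each diet, and their part in Il1r1 was not tested.

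Il6ra (ENSMUSG00000027947; chromosome 3 from 89864059 to 89913196, minus strand), which binds IL-6, had 81.7, 75.7 and 67.1 CPM in Xbp1 fl/fl and 73.7 and 74.7 CPM in Xbp1 LKO hepatocytes on chow, so that the genotypes overlapped. On HFS it had 90.6, 90.2 and 122 CPM in Xbp1 fl/fl and 98.6, 54.3 and 48.5 CPM in Xbp1 LKO hepatocytes, so that 2 of the 3 Xbp1 LKO libraries lay below all others and the remaining one above most. The log2 fold change between genotypes was -0.01 (SE 0.26, adjusted p = 0.989) on chow and -0.59 (SE 0.23, adjusted p = 0.211) on HFS. With 1 library left out, the value on HFS ranged from -0.97 to -0.40 (edgeR, adjusted p 0.00855 to 0.522). The lower end, which passed the threshold, came without the first HFS-fed Xbp1 LKO library, so 1 library decides this call.

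Il6st (ENSMUSG00000021756; chromosome 13 from 112464070 to 112510086, plus strand), the signaling chain that receptors of the IL-6 family share, had 142 to 188 CPM in chow-fed Xbp1 fl/fl, 187 and 206 CPM in chow-fed Xbp1 LKO, 170 to 227 CPM in HFS-fed Xbp1 fl/fl and 159 to 199 CPM in HFS-fed Xbp1 LKO hepatocytes. All 4 groups overlapped in turn, and the log2 fold changes between genotypes were 0.27 (SE 0.17, adjusted p = 0.418) on chow and -0.14 (SE 0.15, adjusted p = 0.713) on HFS. With library totals the HFS value turned to 0.12, where the median of all genes stood at 0.27.

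Il4ra (ENSMUSG00000030748; chromosome 7 from 125552120 to 125579474, plus strand), the chain shared by the receptors for IL-4 and IL-13, was the member that differed between genotypes. On the HFS diet, its level was 30.6, 32.3 and 32.5 CPM in Xbp1 fl/fl and 21.3, 19 and 23.1 CPM in Xbp1 LKO hepatocytes. On chow it was 34.2, 34.3 and 29.1 CPM in Xbp1 fl/fl and 20 and 26.7 CPM in Xbp1 LKO hepatocytes. On both diets, the 2 genotypes did not overlap. The level in Xbp1 LKO hepatocytes was 0.665 of that in Xbp1 fl/fl hepatocytes on HFS (log2 fold change -0.59, SE 0.12, adjusted p = 0.025) and 0.717 on chow (-0.48, SE 0.14, adjusted p = 0.0784).

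The diet left Il4ra within the spread of the libraries, with log2 fold changes of -0.03 (SE 0.12) in Xbp1 fl/fl and -0.14 (SE 0.14) in Xbp1 LKO hepatocytes and an interaction of -0.11 (SE 0.19, adjusted p = 0.952). The call on HFS was lost when any 1 HFS library was left out except the third Xbp1 LKO one (adjusted p 0.0428 to 0.119, log2 fold change -0.66 to -0.52) and with library totals (-0.33, adjusted p = 0.129); relative to the median of all genes under library totals, 0.27, the difference was -0.60.

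**Figure D4:**
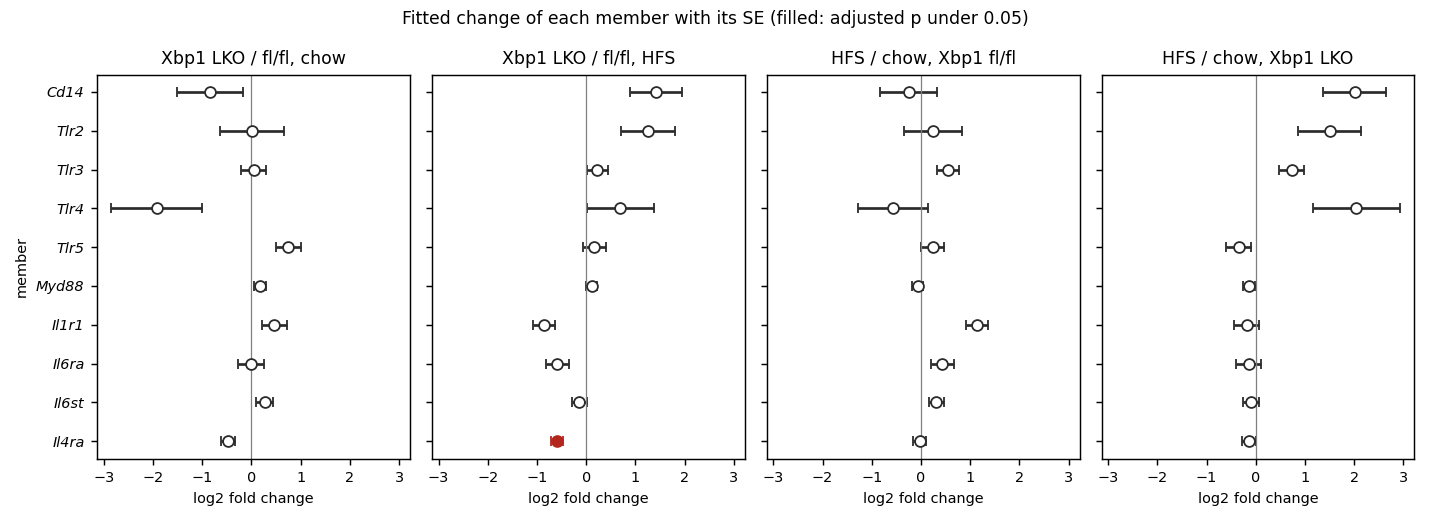
Fitted log2 fold change with its standard error for the 10 members in the 4 pairwise comparisons, from edgeR's quasi-likelihood model of all 11 libraries. Il4ra on the HFS diet is the single filled point (adjusted p = 0.025), and Cd14, Tlr2 and Tlr4 have the widest errors.

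To show what lies around the start sites of the members whose groups separated on the HFS diet, the RefSeq promoter windows (GRCm38.p6) were searched on both strands. Each window spans 250 bases before and 50 bases after the start site. Windows of 8 of the 10 members were searched, and Il1r1 had 2, 1 for each start site. No window of Cd14 or Tlr4 was searched, so Cd14, whose groups separated on HFS, is not covered. CCACG, the core that the spliced form of XBP1 and ATF6 bind within longer elements, occurred in the windows of 4 of these 8 members (Il1r1, Il4ra, Il6ra and Il6st) and in 32.8% of 32851 windows of all genes. The matches of Il6ra and Il6st started 15 and 6 bases after the start site. Il4ra had 3 matches, all on the minus strand, starting 192 and 152 bases before and 39 bases after the RefSeq start site. The longer XBP1 element TGACGTGG (0.676% of all windows) and the ER stress element (0.119%) matched in none of the 8. A match to the NF-kB consensus lay in the windows of 4 of 8 members (Tlr2, Tlr3, Il1r1 and Il4ra) and in 8.46% of all windows. That of Il4ra started 21 bases after the start site. The stretches below lie outside annotated exons, in the direction of the gene, and are shown for Il4ra, Tlr2 and the 2 starts of Il1r1; capitals mark the CCACG matches (read as their reverse complement where they lie on the minus strand), the NF-kB matches and, at the first start of Il1r1, the C/EBP-like TTGCNNAA. The positions are chr7:125552021-125552119 (plus) for Il4ra, chr3:83841768-83841858 (minus) for Tlr2, and chr1:40224830-40225079 and chr1:40266336-40266585 (both plus) for Il1r1.
Il4ra: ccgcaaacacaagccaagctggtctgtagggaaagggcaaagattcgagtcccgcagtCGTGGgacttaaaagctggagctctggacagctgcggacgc
Tlr2: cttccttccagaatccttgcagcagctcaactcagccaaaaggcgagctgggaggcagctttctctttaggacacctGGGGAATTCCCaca
Il1r1, first start: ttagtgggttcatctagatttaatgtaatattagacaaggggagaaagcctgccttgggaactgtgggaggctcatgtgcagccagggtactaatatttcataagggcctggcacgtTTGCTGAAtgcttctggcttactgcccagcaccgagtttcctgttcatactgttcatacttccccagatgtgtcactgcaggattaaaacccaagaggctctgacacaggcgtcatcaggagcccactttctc
Il1r1, second start: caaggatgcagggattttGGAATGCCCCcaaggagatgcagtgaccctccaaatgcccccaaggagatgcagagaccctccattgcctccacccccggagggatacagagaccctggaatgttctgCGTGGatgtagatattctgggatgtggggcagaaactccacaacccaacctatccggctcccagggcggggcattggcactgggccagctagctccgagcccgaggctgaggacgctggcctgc

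A match is a description of the letters only, and no binding was measured here. In the Tlr2 stretch, the capitals join overlapping NF-kB matches on both strands. Of the 3 matches of Il4ra to CCACG, the one 192 bases before the start site lies wholly in the printed stretch. The TTCNNNGAA pattern of STAT sites (8.3% of all windows) occurred only in the Myd88 window among the 8. TTGCNNAA occurred in 2 of the 8 members and in 10.8% of all windows. TGACGTCA (1.79% of all windows) and TGANTCA (7.81%) matched in none of the 8.

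The genes that work with the members were examined as 9 lists, of which 112 genes passed the filter on low counts. Between genotypes, 5 of them were lower and 0 higher in chow-fed Xbp1 LKO hepatocytes (4.46%, beside 4.75% of all genes), and 6 were lower and 1 higher on the HFS diet (6.25%, beside 4.08%). The diet changed 0 of 112 in either genotype, with 0.428% and 0.0601% of all genes past the threshold, and DESeq2 called 0 in both, beside 9 and 14 between genotypes on chow and HFS. Among the partners of the Toll-like receptors (9 of 15 listed genes tested), Cnpy3, a chaperone that folds Toll-like receptors together with HSP90B1, was lower in Xbp1 LKO hepatocytes on both diets. It had 57.5, 56.5 and 40.3 CPM in chow-fed Xbp1 fl/fl and 24.1 and 26.1 CPM in chow-fed Xbp1 LKO hepatocytes, and 50 to 59.3 CPM against 19 to 28.9 CPM on HFS. Its log2 fold change was -1.04 (SE 0.20, adjusted p = 0.0131) on chow and -1.22 (SE 0.17, adjusted p = 0.0036) on HFS. Tlr12, a receptor for profilin of parasites, was the single listed gene that rose, from 9.19 to 14.3 CPM in HFS-fed Xbp1 fl/fl to 31.4 to 44.4 CPM in HFS-fed Xbp1 LKO hepatocytes (log2 fold change 1.78, SE 0.38, adjusted p = 0.0254).

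Downstream of the receptors, 18 adapters and kinases were tested. Ikbke, an IkB kinase-related kinase that activates interferon regulatory factors, fell on both diets, by 2.13 on the log2 scale on chow (SE 0.30, adjusted p = 0.00449) and by 1.40 on HFS (SE 0.25, adjusted p = 0.0105). Its level was 27.9 to 34.2 CPM in chow-fed Xbp1 fl/fl against 6.53 and 7.43 CPM in Xbp1 LKO hepatocytes, and 25.5 to 36.0 against 7.21 to 16.3 CPM on HFS. Irf5, a transcription factor that acts after MYD88, fell on chow (log2 fold change -1.28, SE 0.30, adjusted p = 0.0344) and had -0.86 on HFS (adjusted p = 0.0824). None of the other 16 passed on either diet, and the list's median log2 fold change was -0.01 on chow and -0.03 on HFS.

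Of the IL-1 receptor family and its brakes (9 of 14 genes tested), Il1rap, the second chain that IL1R1 needs to signal, was lower in Xbp1 LKO hepatocytes on both diets. It had 170 to 229 CPM in chow-fed Xbp1 fl/fl and 89.4 and 124 CPM in chow-fed Xbp1 LKO hepatocytes, and 190 to 227 against 108 to 140 CPM on HFS. The log2 fold change was -0.88 (SE 0.18, adjusted p = 0.0219) on chow and -0.72 (SE 0.16, adjusted p = 0.0313) on HFS, so that on chow the 2 chains of the IL-1 receptor stood in opposite directions, with Il1r1 at 0.46 and not past the threshold. Il1rn, the secreted IL-1 receptor antagonist, fell on chow, from 3.24 to 7.74 CPM to 1.53 and 2.26 CPM (log2 fold change -1.59, SE 0.38, adjusted p = 0.0356). On HFS it was 2.75 to 4.36 CPM in Xbp1 fl/fl and 2.80 to 3.67 CPM in Xbp1 LKO hepatocytes. Of the 9 pathway genes past the threshold on either diet, 8 lost a call when some single library was left out, the exception being Ifnar2, and without the second chow-fed Xbp1 LKO library 0 of the 5 chow calls were left.

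**Figure D5:**
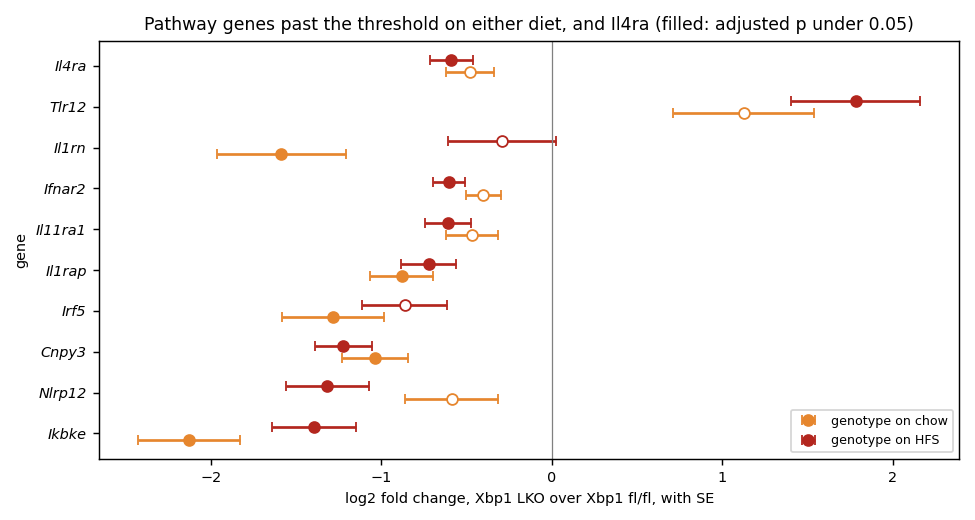
Log2 fold change with standard error between Xbp1 LKO and Xbp1 fl/fl hepatocytes on chow and on HFS for the listed pathway genes past the threshold on either diet, with Il4ra; filled points have an adjusted p under 0.05. Tlr12 is the single gene to the right of 0, and Cnpy3, Ikbke and Il1rap are filled on both diets.

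Among the partners of Il6st and the JAK-STAT3 genes (13 of 15 tested), 0 passed on chow and Il11ra1, the IL-11 receptor chain, fell on HFS (log2 fold change -0.61, SE 0.14, adjusted p = 0.0301); its reads could be shared with near-identical copies, so the value is uncertain. Jak1 (117 to 136 CPM over all libraries) and Stat3 (104 to 238 CPM) were abundant in every library. Lifr, the leukemia inhibitory factor receptor, had 365 to 573 CPM in HFS-fed Xbp1 fl/fl and 249 to 278 CPM in HFS-fed Xbp1 LKO hepatocytes without overlap, at a log2 fold change of -0.81 (SE 0.31, adjusted p = 0.196). In the list of IL-4 family and other interleukin receptors, 0 of 15 tested genes passed on either diet. Il13ra1, which pairs with IL4RA, had 28.4 to 50.8 CPM in chow-fed Xbp1 fl/fl and 15.5 and 26.5 CPM in chow-fed Xbp1 LKO hepatocytes (log2 fold change -0.81, SE 0.32, adjusted p = 0.19), and Stat6 stayed at 73.1 to 92.4 CPM over all libraries. Of 7 interferon and TNF receptors, Ifnar2, a chain of the type I interferon receptor, fell on HFS from 39.6 to 45.1 CPM to 26.1 to 28.9 CPM (log2 fold change -0.60, SE 0.09, adjusted p = 0.00539) and had -0.40 on chow (adjusted p = 0.0528).

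Most ligands of these receptors were at or near 0 counts in the hepatocyte libraries. Of 18 listed cytokines, 6 passed the filter on low counts, led by Il18 (mean 10.6 CPM) and Ctf1 (3.74 CPM), and 0 differed in any comparison. Il6, Il13, Osm, Ifnb1, Ifng and Il10 had 0 counts in all 11 libraries, which allows up to 3 counts per library, and Tnf had at most 3 counts and Il1b at most 7. The acute phase genes that IL-1 and IL-6 induce were tested in 21 of 22 cases, and 0 passed in any comparison. On HFS, 18 of the 21 had a negative log2 fold change between genotypes (median -0.92, beside 0.01 for all genes), led by Itih4 (-1.66, SE 0.43, adjusted p = 0.0546) and the fibrinogen chain Fga (-1.29, SE 0.34, adjusted p = 0.0554). The direction was not particular to this list: of the 19 hepatocyte markers tested, 16 were negative in the same comparison (median -0.34). On chow 12 of 21 were negative (median -0.26), with Saa3 at 3.48 (SE 1.16, adjusted p = 0.121). That value rests on 1 library, as Saa3 had 10.1 and 295 CPM in chow-fed Xbp1 LKO and 7.12 to 24.5 CPM in chow-fed Xbp1 fl/fl hepatocytes.

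The libraries of a group differed widely in acute phase genes. Saa1, a serum amyloid A gene named here after its values were seen, had 2240, 377 and 29.8 CPM in chow-fed Xbp1 fl/fl, 31 and 1870 CPM in chow-fed Xbp1 LKO, 31.6, 3430 and 44.8 CPM in HFS-fed Xbp1 fl/fl and 60.9, 116 and 1520 CPM in HFS-fed Xbp1 LKO hepatocytes. Each of the 4 groups thus held 1 library of 1520 CPM or more, and the same 4 libraries had the most Saa2 and the most Lcn2 (145 to 515 CPM, against at most 15.8 CPM in the other 7). In 3 of the 4 groups that library also had the highest Cd14 and Tlr2 of its group, whereas in HFS-fed Xbp1 LKO hepatocytes it had the lowest of both. Socs3, a feedback inhibitor that STAT3 induces, was highest in the same library in 3 of the 4 groups, with 67.2 CPM in the second chow-fed Xbp1 LKO library. What these libraries have in common was not tested.

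Likeness of pattern was described by Pearson's r of log2 CPM over the 11 libraries, which share their groups and depth, among 11129 genes with a mean of at least 1 CPM. Cd14 and Tlr4 were below that level. The genes most like Il4ra were Krtcap2 (r = 0.979), Tmem214 (0.963) and Tex2 (0.959). For Il6ra they were Susd6 (0.952), Wbp1l (0.902) and Fam214b (0.886), and for Il6st Fam120c (0.938) and Lmtk2 (0.928) were among them. Tlr3 was most like Rnf213 (0.929), Sema5b (0.923) and Tap1 (0.92), and Myd88 most like Med9 (0.91), Pard6a (0.9) and Neil2 (0.899). Lower values led the lists of Tlr2 (Slc36a4 0.89, Tnfaip3 0.876, Slc35f2 0.871), Tlr5 (Cdyl2 0.89, Pex26 0.856, Thnsl1 0.85) and Il1r1 (Ginm1 0.832, Isca1 0.812, Ehmt1 0.811). By Spearman's rank, 7 of the 24 genes chosen in this way were still among the 3 most like their member.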

How the data were processed

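RNA of isolated hepatocytes was sequenced as single-end reads in 11 libraries. The deposited values are whole-number counts per Ensembl gene, made by the authors and not normalized. The study's methods name kallisto with tximport, whereas the submitters' processing notes name cutadapt 1.13, STAR, HTSeq 0.6.1p1, DESeq2 and the mm10 build; which of them made the files, and whether strand was used, is not given in the sources used here. The methods name a stranded mRNA kit and the labels a total RNA kit. Of 54232 identifiers, 54079 matched GENCODE M21 (GRCm38), which gave symbols and positions. No row without a gene name was present.

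Counts were normalized with edgeR 4.0.16 (R 4.3.3; TMM; filterByExpr, minimum count 10), and all 11 libraries entered 1 quasi-likelihood fit with a mean for each of the 4 groups, p-values being adjusted over 13303 genes (Benjamini-Hochberg) and a threshold of 0.05. SE is the log2 fold change over the root of F. Alternatives were DESeq2 1.42.0, other scalings, filters and fits, replicate blocks and each library left out. The code was tested on simulated data with known changes. Groups came from the labels, and no 2 replicates agreed within sampling noise (chi-square of 25.4 to 91.5 per degree of freedom); that they were separate animals or pools rests on the study's methods. The members and gene lists were chosen with earlier results of these data known. Named genes were all members, listed genes past the threshold, the 2 of smallest p in a list and comparison described, marker genes past the threshold or of highest level, and the 3 most like a member, of which 1 is not reported here; Saa1, Saa2, Lcn2 and others given as levels were named after their values were seen.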

Additional observations from a re-analysis of the deposited data

Results flagged for a closer look

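Il1r1 was singled out because its groups lay apart in opposite directions under the same contrast on the 2 diets: both chow-fed Xbp1 LKO libraries were above all 3 Xbp1 fl/fl libraries, and the 3 HFS-fed Xbp1 LKO libraries were below all 3. The share of all genes with such opposite directions was not computed. Genotypes did not overlap for 31.3% of all genes on chow and for 26.1% on HFS. The interaction of Il1r1 was -1.32 on the log2 scale (SE 0.34) and did not pass the adjustment (edgeR, adjusted p = 0.623). Groups of 2 or 3 libraries are too small for a test of single outlying libraries, so none was run.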

How the results depend on the processing

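The number of members past the threshold, 0, 1, 0, 0 and 0 for genotype on chow, genotype on HFS, diet in Xbp1 fl/fl, diet in Xbp1 LKO and the interaction, moved in some settings. With library totals it was 4 on chow and 0 on HFS, with DESeq2 1 and 2, and 1 for the diet in Xbp1 fl/fl. Without a filter beyond 1 count it was 1, 4, 1, 2 and 1, where all genes called went from 632, 543, 57, 8 and 0 to 1507, 1438, 499, 722 and 269. With only the groups compared it was 2 on HFS. Leaving out 1 library gave 0 to 1 on HFS and 0 elsewhere. Leaving out the first chow-fed Xbp1 fl/fl or the second chow-fed Xbp1 LKO library from comparisons that do not use it, an alternative chosen after seeing the data, changed no count of members. Over all genes, DESeq2 called 1130, 1007, 181, 213 and 29, only the groups compared called 233 on chow and 0 for the diet in Xbp1 LKO, and library totals called 3000 and 1483 between genotypes, of which 89.5% and 86.9% were higher, against 36.4% and 47.1% with TMM. Leaving out single libraries gave 69 to 762, 184 to 662, 6 to 56, 0 to 36 and 0. Of the 112 pathway genes, 5, 7, 0, 0 and 0 of which passed, other settings gave 2 to 18, 6 to 27, 0 to 3, 0 to 13 and 0 to 5, the highest each without a filter, and leaving out single libraries 0 to 6 on chow, 3 to 9 on HFS and 0 elsewhere. The cause was not tested.

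Same-numbered libraries did not deviate together from their group means (r -0.20 to 0.23, mean -0.01, over 15 pairs). With so few libraries per group, this check cannot exclude that the numbers pair the libraries, and 1 library has another number in its file name. With the replicate block of the titles 0 members passed on HFS (Il4ra -0.59, adjusted p = 0.052 in edgeR), with that of the file names 1, and all genes called for the diet in Xbp1 LKO were 19 and 53. The Xbp1 difference on chow was -0.85 with the block of the titles, -0.54 with library totals and -0.88 with only the groups compared, none of which passed the threshold, and -1.10 to -0.68 with 1 library left out.

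Of the members' log2 fold changes, 403 of 429 values under other settings kept direction and side of the threshold. Of those with the opposite sign, for Tlr2 between genotypes on chow were -0.004 with DESeq2, -0.002 with only the groups compared and -0.271 with the replicate block, and for Tlr3 -0.002 with the block. For Il6ra on chow they were 0.316 with library totals, 0.006 with upper quartile factors and 0.013 without a filter, and for Il6st on HFS 0.117 with library totals. With 1 library left out, values ranged from -0.653 to 0.513 (Cd14) and -0.725 to 0.738 (Tlr2) for the diet in Xbp1 fl/fl, where Myd88 had -0.137 to 0.007 and Il4ra -0.106 to 0.009. Between genotypes on chow the ranges were -0.379 to 0.499 (Tlr2), -0.084 to 0.188 (Tlr3) and -0.085 to 0.055 (Il6ra), and on HFS -0.171 to 0.348 (Tlr5). For the diet in Xbp1 LKO they were -0.524 to 0.043 (Il6ra) and -0.338 to 0.09 (Il4ra), and for the interaction -0.002 to 0.338 (Tlr3), -0.177 to 0.05 (Myd88) and -0.307 to 0.115 (Il4ra). By Spearman's rank 7 of 24 most similar genes were kept. Leaving out 1 chow-fed Xbp1 LKO library assumes that the other varies like the other groups. Counts of 2 to 14 per library limit Tlr4, and 4 to 37 limit Cd14. Some settings filtered Tlr4 out. Between genotypes on HFS it had 6 values with 1 library left out, where Il4ra had 8. Under the other settings it had 7, where Il4ra had 9.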

Other observations

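Among 14 tested sensors of nucleic acids in the cytosol and NOD-like receptors, Nlrp12, a NOD-like receptor described as a brake on inflammatory signaling, fell on the HFS diet from 60.7 to 96.1 CPM in Xbp1 fl/fl to 18.9 to 39.0 CPM in Xbp1 LKO hepatocytes (edgeR, log2 fold change -1.32, SE 0.25, adjusted p = 0.0138), with 71.8 to 86.7 and 44.9 and 58.2 CPM on chow. Casp1, the inflammasome protease, had 0.191 to 0.56 CPM in HFS-fed Xbp1 fl/fl and 0.372 to 1.14 CPM in HFS-fed Xbp1 LKO hepatocytes (log2 fold change 1.32, SE 0.55, adjusted p = 0.241). The double-stranded RNA sensors Ddx58 and Ifih1 had 18.8 to 44.1 and 27.9 to 54.6 CPM over all libraries, and no diet or genotype difference of either passed the threshold.

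Of the 14 tested cell isolation stress genes, only Atf3 passed the threshold between genotypes. It rose in Xbp1 LKO hepatocytes on chow (0.496 to 1.21 against 6.53 and 43.0 CPM, edgeR, adjusted p = 0.00519) and on HFS (0.611 to 0.953 against 3.24 to 9.43 CPM, adjusted p = 0.0304). The list as a whole had 8 positive and 6 negative log2 fold changes on chow (median 0.09). On HFS it had 3 positive and 11 negative ones (median -0.29). Cd4 rose with the diet in Xbp1 fl/fl hepatocytes, from 0.498 to 0.883 to 2.29 to 3.18 CPM (edgeR, adjusted p = 0.0422), and was the single lymphocyte marker of 13 that passed the filter on low counts. Neutrophil markers summed to 0.0996 to 6.59 CPM and were highest in HFS-fed Xbp1 LKO libraries 2 and 3. Cholangiocyte markers summed to 3.57 to 16.5 CPM, and Sox9 of that list fell on chow (log2 fold change -1.54, SE 0.31, adjusted p = 0.0167).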
